A study of Drosophila melanogaster with 3 samples.

Results

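Homothorax (hth, FBgn0001235) and extradenticle (exd, FBgn0000611), the Drosophila melanogaster genes for the homeodomain partners of Hox proteins, were examined as candidate binding targets of the Hox protein Labial. Both genes were chosen by name, 2 of 13945 protein-coding genes, and each was taken with 5 kb on either side: hth at 3R:10507561-10639568 on the minus strand and exd at X:15992468-15996509 on the plus strand (dm6). Of the 10160 binding summits in the reproducible peak list, 22 lay in the hth window and 0 in the exd window.

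The series holds chromatin immunoprecipitation followed by sequencing on whole embryos aged 0 to 24 h, pooled over male and female. The embryos came from 1 transgenic line in which GFP is joined to the C terminus of lab, and an anti-GFP antibody was used, so what was recovered is the fusion protein in every tissue at once. There was 1 group of 3 biological replicates with 1 shared control; embryos lacking the fusion were not analysed here, and chromatin was sheared to 200 to 800 bp. Each replicate and the pooled reads had a list of 30000 peaks, and the list that passed the irreproducible discovery rate (IDR), a measure of how well ranks repeat between replicates, held 10160. A summit is the base of highest signal in a peak. The signal is the authors' score of each peak; a higher signal gives a rank nearer 1. With no other group to compare, the results are counts, positions and ranks without a test of a contrast, and the replicates give their error.

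Exd and Hth are TALE homeodomain proteins. Exd binds DNA together with a Hox protein and sharpens which sites that Hox protein prefers, while Hth binds Exd, carries it into the nucleus and can occupy a site of its own in the same complex. In the fly embryo, Labial with Exd and Hth acts in the midgut, among others on the autoregulatory enhancer of lab. The short hth transcripts encode a protein without the homeodomain that still binds Exd, and the long transcripts encode the full protein.

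The summits of hth were numbered 1 to 22 in the direction of transcription. The sequences of 5 of them are shown. Summits 2, 9 and 12 are the strongest beyond the distal start site, between the start sites, and in the part shared by short and long transcripts. Summit 10 is the promoter summit, and summit 17 is the summit with both an Exd-Hox match and an Hth match. Each is the 201 bases centred on the summit, from the plus strand of the dm6 genome (NCBI Release 6), 5′ to 3′. Capitals mark matches on either strand to the Exd-Hox form TGATNNAT, the Hth form TGACAG and the Hox core TAATTA.

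Summit 2 (3R:10643143-10643343): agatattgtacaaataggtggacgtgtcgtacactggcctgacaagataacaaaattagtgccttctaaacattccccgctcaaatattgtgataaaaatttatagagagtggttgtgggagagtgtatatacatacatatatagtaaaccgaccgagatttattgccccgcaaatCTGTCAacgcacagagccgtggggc
Summit 9 (3R:10624225-10624425): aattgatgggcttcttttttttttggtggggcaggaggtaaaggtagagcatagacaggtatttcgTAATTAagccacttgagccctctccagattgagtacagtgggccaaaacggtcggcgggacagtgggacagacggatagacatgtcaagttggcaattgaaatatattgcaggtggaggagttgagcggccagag
Summit 10 (3R:10614351-10614551): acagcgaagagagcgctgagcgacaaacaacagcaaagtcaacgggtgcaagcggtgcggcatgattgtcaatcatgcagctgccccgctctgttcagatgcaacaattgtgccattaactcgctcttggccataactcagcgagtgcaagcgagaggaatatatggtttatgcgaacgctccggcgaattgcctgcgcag
Summit 12 (3R:10597669-10597869): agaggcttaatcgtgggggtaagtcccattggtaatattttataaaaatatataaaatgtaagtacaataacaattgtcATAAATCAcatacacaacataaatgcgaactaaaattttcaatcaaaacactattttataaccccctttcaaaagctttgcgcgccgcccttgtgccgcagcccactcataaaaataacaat
Summit 17 (3R:10537398-10537598): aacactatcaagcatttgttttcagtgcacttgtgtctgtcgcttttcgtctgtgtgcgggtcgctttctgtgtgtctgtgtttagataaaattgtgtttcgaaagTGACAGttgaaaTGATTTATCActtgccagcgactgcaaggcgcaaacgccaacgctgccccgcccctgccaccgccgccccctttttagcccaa

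Labial-GFP summits were spread along hth at about 3 times the density typical of genes of its length. The 22 summits over the 142.008 kb window gave 0.155 summits per kb. In each replicate's own list, limited to its 10160 strongest peaks, hth had 22 summits in replicate 1, 23 in replicate 2 and 21 in replicate 3 (22 ± 1, SD, n = 3; 0.155 ± 0.00704 per kb). The replicates thus differed by no more than 2 summits. Of all protein-coding genes, 58.8% had at least 1 IDR summit within 5 kb and the median gene had 1, while 7 genes had more summits than hth.

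Because long genes collect more summits, hth was set beside the 104 other genes within 1.5 times its length (88.2 to 179 kb). Their median was 0.0522 summits per kb, their upper quartile 0.0864 per kb, and the ratio of hth to the median was 2.97. The density of hth exceeded that of 96 of these genes (92.3%), and in the replicates' own lists it exceeded 94.2%, 94.2% and 90.4%. Of the 104 genes, 11 had no summit. The densest were bun, which encodes TSC22-family transcriptional regulators, with 30 summits (0.297 per kb), Eip75B, an ecdysone-induced nuclear receptor, with 27 (0.218 per kb), and CG32264 with 21 (0.207 per kb). Directly above hth in this order stood Glut4EF with 21 summits (0.161 per kb), and directly below it fz2, a Wingless receptor, with 16 (0.153 per kb).

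Neighbours in this order did not differ from hth beyond the replicate spread. Glut4EF had 0.176, 0.153 and 0.168 summits per kb in the replicates, against 0.155, 0.162 and 0.148 for hth, so the ranges overlapped. The range of fz2, 0.125 to 0.153 per kb, overlapped that of hth as well. That of bun, 0.257 to 0.317 per kb, lay wholly above it. Measured over introns alone, hth had 18 summits in 120.169 kb (0.150 per kb) against a median of 0.0488 per kb, and 12 of the 104 genes were denser. These 18 are all summits in the gene outside exons. They include 1 within 500 bp of a start site, which is classed below as a promoter summit and not as intronic.

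**Figure D1:**
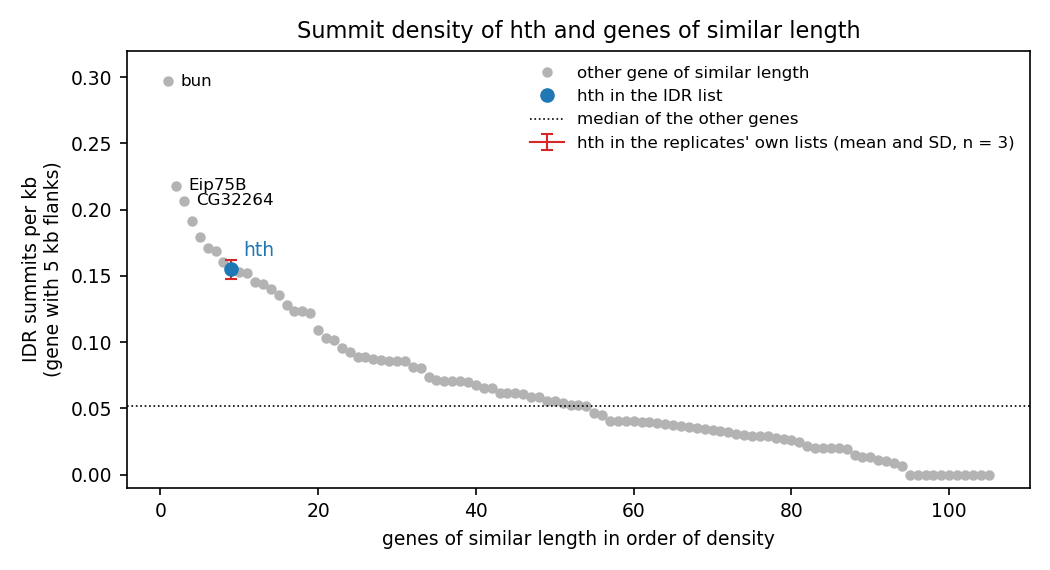
IDR summits per kb of gene with 5 kb flanks (vertical axis) for hth and the 104 genes of similar length, in order of density (horizontal axis); the red bar is the mean and SD of hth over the 3 replicates' own lists. hth stands 9th at 0.155 per kb, against a median of 0.0522 for the other genes.

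The peaks over hth were of middling strength. Their signals ran from 209.5 to 1065 with a median of 305, against a median of 355 over all IDR peaks and a highest value of 11185. Ranks ran from 918 to 9561 with a median of 6133 of 10160. Of the 22 summits, 8 stood among the stronger 5080 peaks and 1 among the strongest 1016. The 7 narrow peaks of 154 to 348 bp had signals of at least 322, whereas the 15 peaks of the full 424 bp width had 209.5 to 463. Narrow peaks made up 31.8% at hth and 34.3% of the whole IDR list.

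**Figure D2:**
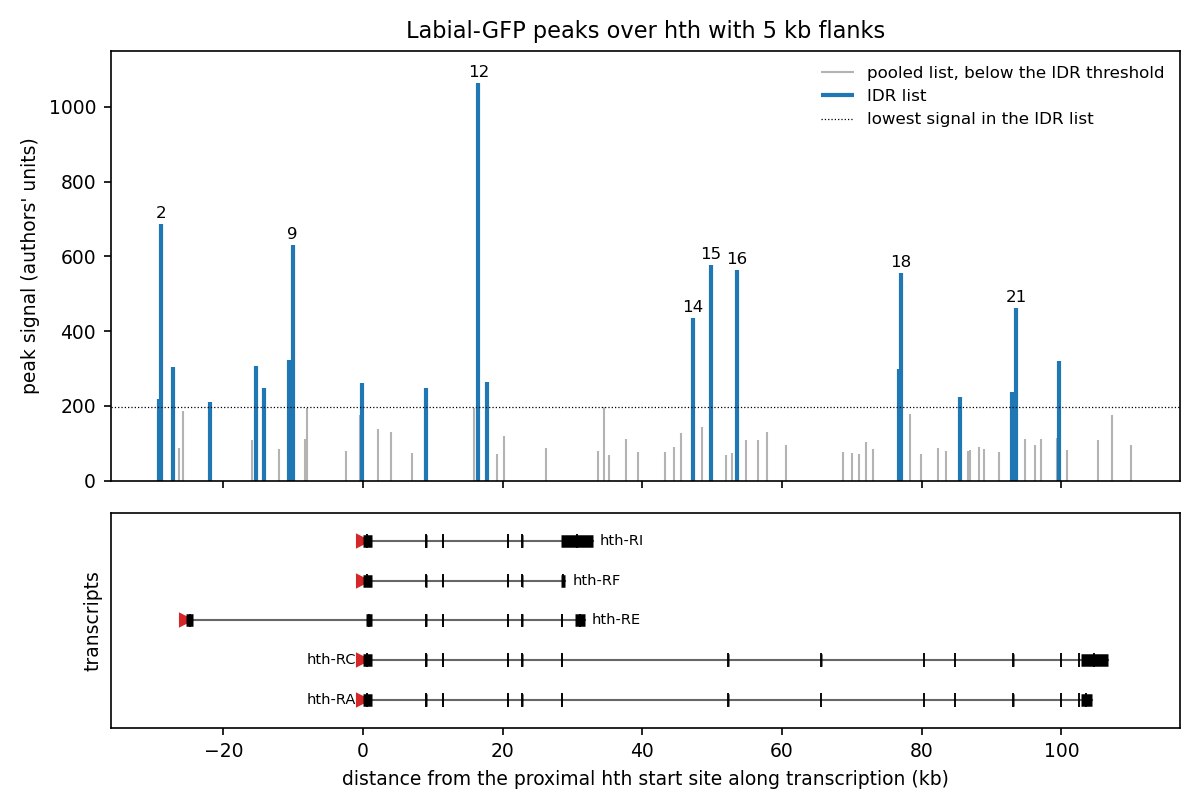
Signal of each peak (vertical axis, the authors' units) against its distance from the proximal hth start site along transcription in kb (horizontal axis), with the 5 annotated transcripts below (boxes and ticks, exons; red arrowheads, start sites). The 22 IDR summits (blue) run from the upstream flank to intron 11, the strongest is summit 12 at 1065, and the 53 weaker pooled summits (grey) fill the spaces between them.

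The gene has 5 annotated transcripts and 2 start sites. The proximal start, at 10614276, serves the long transcripts RA and RC and the short transcripts RF and RI. The distal start, 25.292 kb further upstream at 10639568, serves the short transcript RE. The short transcripts end near the middle of the gene, between 10581406 and 10585284, and the long ones run on to 10509847 (RA) and 10507561 (RC). These positions divide the window into the stretch upstream of the proximal start, the part shared by short and long transcripts, and the part reached by the long transcripts alone. The shared part runs from the proximal start to 10581406. Of the stretch upstream of the proximal start, the part between the start sites belongs to the short transcript RE and lies within the gene. The division was chosen after the summits had been seen.

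Summits were densest upstream of the proximal start. That stretch of 30.292 kb held 10 of the 22 summits (0.330 per kb), with 10, 10 and 9 in the replicates' own lists (9.67 ± 0.577, SD, n = 3). Of the 10 IDR summits, 7 lay between the start sites, inside the short transcript RE, and 3 in the flank beyond the distal start. The 32.871 kb part shared by short and long transcripts held 3 (0.0913 per kb), and each replicate had 4 there. The 73.845 kb reached by the long transcripts alone held 9 (0.122 per kb), with 7, 9 and 8 in the replicates (8 ± 1). The flank downstream of the gene held 0, with 1 in replicate 1 and 0 in the other replicates. In every replicate the density upstream of the proximal start was above that of the shared part and that of the part reached by the long transcripts alone.

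The upstream share varied with the peaks counted. It was 45.5% of the 22 IDR summits and 43.9 ± 1.36% in the replicates (SD, n = 3), but 2 of the 8 stronger summits, and 15.1% of the 53 weaker pooled summits. The part reached by the long transcripts alone held 5 of the 8 stronger summits. Its 9 peaks had a median signal of 436, against 285 for the 10 upstream peaks. With summits within 500 bp counted once, 7 of 18 (38.9%) were upstream.

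**Figure D3:**
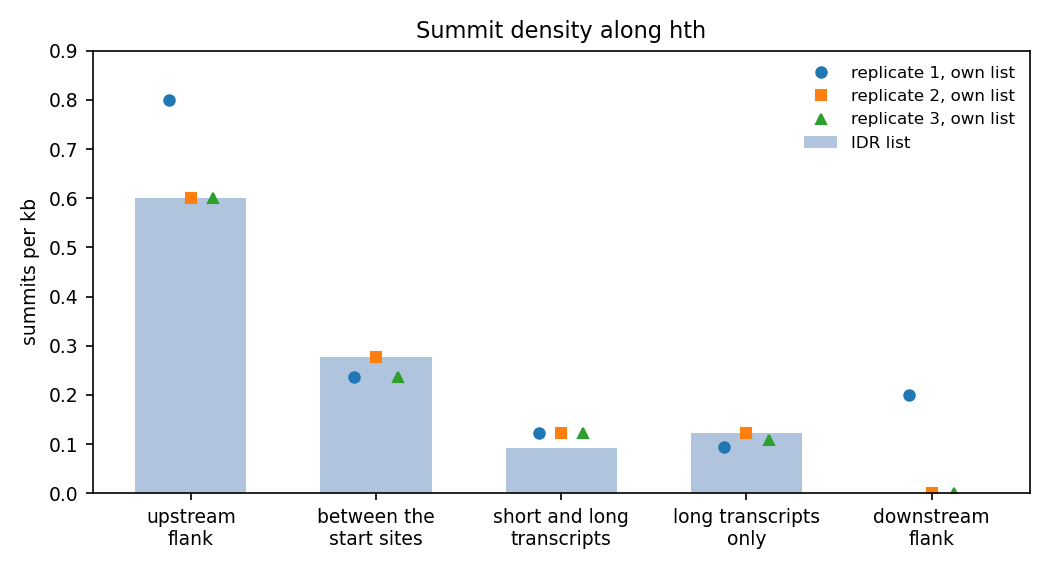
Summits per kb (vertical axis) in 5 stretches of the hth window from the upstream to the downstream flank; bars give the IDR list and points the 3 replicates' own lists of equal length. The upstream flank (0.600) and the stretch between the start sites (0.277), which belongs to the short transcript RE, lie above the part shared by short and long transcripts (0.0913). They also lie above the part of the long transcripts alone (0.122).

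By annotation, introns held 17 of the 22 summits (77.3%), against 44.0% of all IDR summits. A further 3 were outside protein-coding genes, 1 was in a promoter and 1 in a coding exon. Promoters, within 500 bp of a start site, held 35.2% of all IDR summits, and 25.5% of protein-coding genes had such a summit. The median distance of the hth summits to the nearest protein-coding start was 13817 bp, against 1371.5 bp over all IDR summits. Over 10 kb away lay 15 hth summits (68.2%), compared with 12.8% of the whole list. Introns, however, made up 120.169 kb of the 132.008 kb gene, and its 2 start sites were 25.292 kb apart. Most positions in such a long gene are intronic and far from a start. Genes of similar length were not compared by summit position, so these shares do not show a preference for such sites.

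The promoter summit, summit 10, was 175 bp upstream of the proximal start and was one of the weaker peaks. Its signal was 261 and its rank 7411 in the pooled list, with ranks of 8511, 8790 and 8648 in replicates 1, 2 and 3. These 3 ranks lay close together, and each was within the first 10160. The GC content of its window was 53.2%, against a median of 37.8% over all IDR summits, and it held none of the Exd-Hox, Hth or Hox core forms. The distal start had no IDR summit within 500 bp. The nearest IDR summit was summit 3, 1930 bp upstream (signal 304, rank 6172). A weaker pooled summit lay 428 bp upstream of the distal start, with a signal of 185 at rank 10957.

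The 3 summits beyond the distal start also lay inside an antisense non-coding gene, asRNA:CR44018 (3R:10639279-10645773), which is read from the plus strand and overlaps the distal start. Summit 2 was the strongest of these and of the whole upstream stretch. Its signal was 688 at rank 1917, and its ranks in the replicates were 1780, 1986 and 1947. The next strongest upstream was summit 9 between the start sites, with a signal of 631 at rank 2176 and replicate ranks of 2714, 3152 and 1576. Its neighbours 7 and 8 stood just upstream of it at ranks 5748 and 7232.

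Summit 12, in intron 3, was the strongest peak of the gene in the pooled list and in each replicate. Its peak at 3R:10597618-10597894 had a signal of 1065 and rank 918, and the replicate ranks were 720, 1192 and 950. The signals in replicates 1, 2 and 3 were 370, 310.1 and 396. All 3 replicate summits fell within 15 bp of the pooled one. The other summit of this intron, summit 13, had a signal of 264.

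Downstream of it came the longest stretch without an IDR summit, 29524 bp from summit 13 to summit 14 (10567006 to 10596530), which covers the ends of all 3 short transcripts. The pooled list had 11 weaker summits there. Beyond it, intron 6 held summits 14 and 15 with signals of 436 and 578, and intron 7 held summit 16 with 564. Intron 8 held summits 17 and 18, 199 bp apart, with signals of 299 and 556. Introns 10 and 11 held 2 summits each, the strongest of them summit 21 at 463. From exon 7 on, the exons are missing from the short transcripts, and they include those for the homeodomain.

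The single coding-exon summit, summit 11 in exon 2, belongs to a rare class, 34 of 10160 IDR summits (0.335%). Its signal was 249 at rank 7852, and its GC content of 63.2% was the highest of the 22. Replicates 2 and 3 had a summit within 100 bp, at ranks 9490 and 9209, but replicate 1 had none at that distance among its 30000 peaks, although a wide peak of replicate 1 overlapped it.

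The order of the peaks repeated between replicates. Of the 22 summits, 14 (63.6%) were matched by a peak of at least 50% reciprocal overlap among the 10160 strongest of all 3 replicates, against 55.8% of all IDR peaks. The other summits were matched in 2 replicates (6 summits) or 1 replicate (2 summits), and 0 were matched in none. Since the IDR list was made from these replicates, the matches describe the peaks and are not independent evidence for them. In the whole lists, a replicate summit lay within 100 bp in all 3 for 20 of the 22, against 88.8% of IDR summits. The strongest such summit of each replicate gave the replicate ranks, and the median offset was 14.5 bp. Over those 20 summits, Spearman's rho between the ranks of 2 replicates was 0.85, 0.79 and 0.74. These points share a gene and a control, so the values are descriptive.

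Summits 6, 8 and 17 had the replicate ranks farthest from their pooled ones. Summit 17 ranked 6272 in the pooled list and 6450 in replicate 3, but 16807 and 21476 in replicates 1 and 2. Its neighbour summit 18 ranked 2669 in the pooled list and 3781, 1702 and 3351 in the replicates. By summits within 100 bp, summit 18 thus stayed among the strongest 10160 throughout. By 50% reciprocal overlap with the 10160 strongest peaks, however, summit 17 was matched in replicates 1 and 3, and summit 18 in replicate 2 only. Which of the pair was missed therefore depended on the matching rule. In replicates 1 and 2, the strongest summits within 100 bp of summit 17 were displaced by 98 and 62 bp, and those of summit 18 by 90 and 62 bp. Of the 21 gaps between neighbouring hth summits, whose median was 3683 bp, 4 were 500 bp or less.

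**Figure D4:**
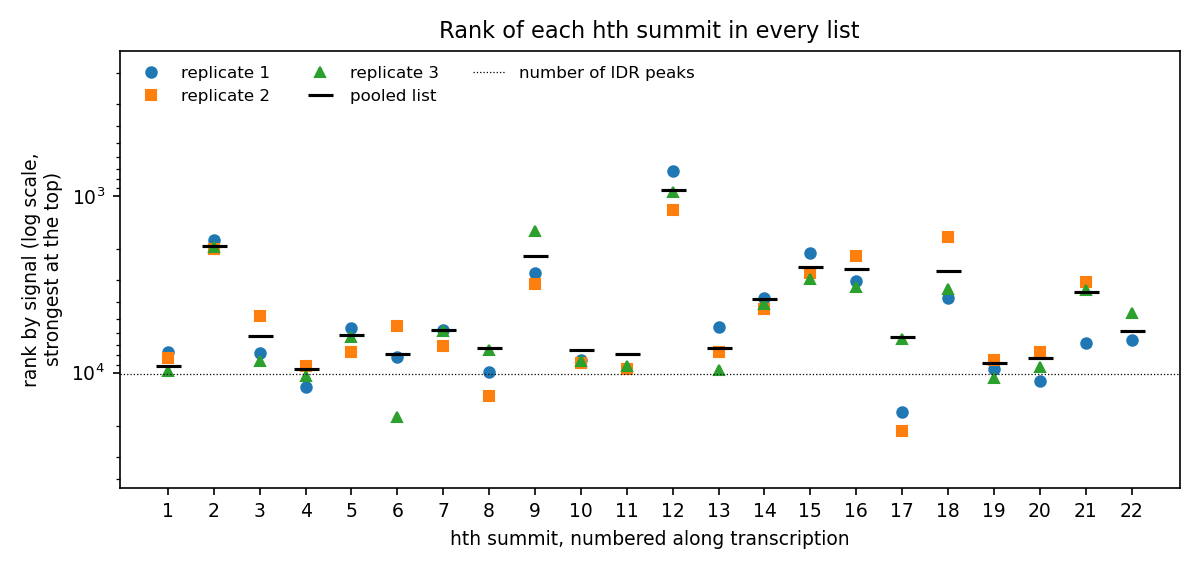
Rank by signal (vertical axis, log scale with the strongest at the top) of each of the 22 hth summits, numbered along transcription (horizontal axis), in the pooled list (black bars) and of the strongest summit within 100 bp in each replicate. Summit 12 leads in every list, and summits 6, 8 and 17 have the replicate ranks farthest below the dotted line at 10160.

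Below the IDR threshold, hth had 53 further pooled summits at ranks 10253 to 29340 and signals of 69.4 to 197. Together with the 22 they made 75, of which 29.3% were in the IDR list, against 33.9% of all pooled peaks. The lower-ranked density of 0.373 per kb compared with a median of 0.180 per kb in the genes of similar length, and 4 of the 104 were higher. None of the 53 lay within 100 bp of an IDR summit. Both sets come from the same pooled list, in which the IDR summits of hth were themselves at least 199 bp apart. The distance therefore does not show that the weaker summits are separate sites. The 30000-peak lists of the replicates had 84, 67 and 67 summits over hth (72.7 ± 9.81, SD, n = 3). Among the 10160 strongest peaks of replicates 1, 2 and 3, in that order, 4, 4 and 2 hth summits had no IDR summit within 100 bp, and 3, 4 and 2 of them lay near a weaker pooled summit.

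The windows of 100 bp on each side of the summits were searched on both strands for sites of Labial, its cofactors and other embryonic factors. A match is a description of the letters and does not show binding. The Exd-Labial forms TGATTGAT and TGATGGAT were in 0 of the 22 hth windows, and in 2.65% and 0.768% of all IDR windows. At the share of all IDR windows, TGATTGAT would be in 0.582 of 22 windows, so 22 windows are too few to read anything from its absence. The wider form TGATNNAT, which includes both, was in 6 (27.3%) against 16.4% of all IDR windows. Windows shifted by 500 bp held it at 2 hth summits on the downstream side and 5 on the upstream side, so 6 is close to one of these controls.

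The Hth form TGACAG was in 3 windows (13.6%) against 7.19%, and in 3 and 2 of the shifted hth windows. The same 3 windows, at summits 2, 17 and 22, held the longer form TGACAGNT, which all IDR windows held at 2.42% and the shifted hth windows at 0 and 2. The Hox core TAATTA was in 2 (9.09% against 14.7%), at summits 6 and 9. The GATA factor form AGATAA was in 3 (13.6% against 15.3%), the GAGA factor form GAGAG in 5 (22.7% against 25.6%), the Zelda core CAGGTA in 2 (9.09% against 4.26%) and the DREF site TATCGATA in 0 (1.98% of all).

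In the printed sequences, the match nearest the strongest summit was ATAAATCA, the reverse strand of a TGATNNAT site, centred 18 bp to the left (the lower coordinate) of summit 12. Summit 17 was the one hth window with both an Hth and an Exd-Hox form. Its TGACAG was centred 8 bp to the right of the summit, overlapping TGATNNAT matches on both strands followed at 21 and 23 bp, and AGATAA lay 14 bp to the left. By summits within 100 bp, the rank of summit 17 fell past 10160 in replicates 1 and 2. A peak among the 10160 strongest of replicate 1 still overlapped it by at least 50%. The GC content of the 22 windows ran from 21.9% to 63.2% with a median of 40.8%, and 10 were below the IDR median.

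The exd window held no summit in any list. It had 0 IDR summits, 0 weaker pooled summits, and 0 in the whole 30000-peak list of replicates 1, 2 and 3. For a gene of this size that is common: of the 2864 other genes within 1.5 times its 4.042 kb length, 1083 (37.8%) had no IDR summit and 726 (25.3%) no pooled summit within 5 kb. Over all protein-coding genes, 74.9% had at least 1 pooled summit within 5 kb. The other genes that overlap the exd window, eIF5, CG46312, CG8939 and vap, had 0 pooled summits as well. A peak list gives no signal where no peak was called, so a level of binding below the lists was not measured.

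The empty stretch around exd was far wider than the gene. Measured from the nearer end of the gene, the nearest pooled summit on the left was 100.34 kb away, 12 bp from a start site of shi, which encodes dynamin, with rank 8638 and a signal of 229. On the right it was 75.83 kb away in Nipsnap, at rank 12879. The first IDR summit on the right was 93.88 kb away in Tob, with a signal of 1440 at rank 524. Between the pooled summits lay 180.211 kb with 23 protein-coding genes, and of the 5070 stretches between neighbouring pooled summits on the X chromosome 1 was longer. Their median was 1.62 kb. Over all chromosome arms it was the 10th longest and held the 9th most genes. This stretch was looked at after the exd count had been seen.

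The replicates shared the stretch in part. In their whole lists the stretch that holds exd was 113.6 kb, 91.1 kb and 171.6 kb long, and 1, 3 and 1 stretches on the X were longer. More than 500 bp inside the pooled stretch, replicate 1 had 1 summit, replicate 2 had 4 and replicate 3 had 1. The strongest of these stood at ranks 22010, 15259 and 15096, so none was among the 10160 strongest. The nearest to exd in any replicate was 9.255 kb away at a start of vap, at rank 22010 in replicate 1. What sets this stretch apart was not tested.

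**Figure D5:**
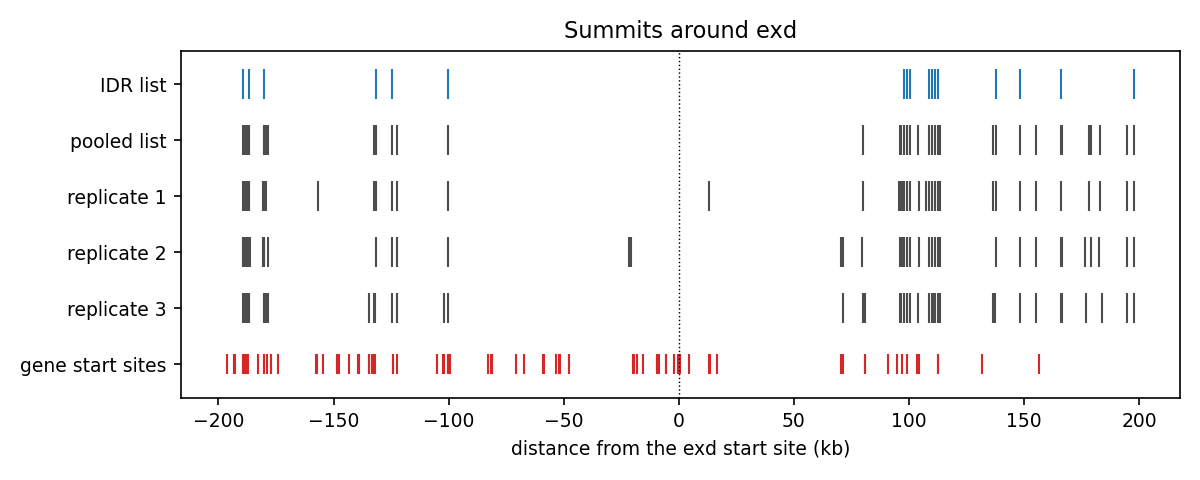
Summits within 200 kb of the exd start site in each list (rows), by distance from that start in kb (horizontal axis), with protein-coding start sites in red. No pooled summit lies between 100.34 kb to the left and 79.871 kb to the right of its start. Start sites lie within this stretch on both sides of exd, with none from 16.6 to 70.4 kb to the right.

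The other TALE homeobox genes had 0 or 1 IDR summit each, where the median of all genes was 1. Counting hth and exd, 4 of the 7 had an IDR summit within 5 kb, close to the 58.8% of all genes, and 1 had a promoter summit, hth itself. The neighbouring genes achi and vis shared a single peak with a signal of 446 at rank 3700. Their densities of 0.0739 and 0.0786 per kb were near the median of 0.0745 per kb over all genes, and caup was lower at 0.0451. Of the Iroquois genes, which pattern the dorsal eye and the notum, caup had 1 IDR summit, and ara and mirr had 0 with 5 and 8 weaker pooled summits. hth is the longest of these genes.

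Zinc finger proteins that work with Hox proteins and Hth had an IDR summit within 5 kb at 2 of 4 genes, near the 58.8% of all genes. disco-r had 2, with a best rank of 3855, and tsh, a trunk regulator that acts with Hth, had 1 at rank 3098. tio and disco had 0. Of the regulators of eye and limb development, in which hth also acts, 3 of 6 had one, again near that share. dac had 2, so 1 and Dll 1, the last in its promoter. eya had 0 with 5 weaker pooled summits, and ey and toy, on chromosome 4, had 0 in both lists.

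Among the 8 homeotic genes, 5 had an IDR summit within 5 kb and 2 a promoter summit, near the 58.8% and 25.5% of all genes. lab itself, at 0.295 per kb, and Antp, at 0.0708 per kb, had 8 each and were the homeotic genes with a promoter summit. In the replicates' own lists lab had 9, 9 and 9, and Antp 10, 9 and 7. Ubx had 2, abd-A and Abd-B 1 each, and pb, Dfd and Scr 0. Per kb in the IDR list, hth at 0.155 lay between lab and Antp. The replicate range of hth, 0.148 to 0.162, did not reach either IDR value, but replicate densities of lab and Antp were not computed. Antp, at 102.976 kb, is among the genes of similar length to hth. lab is far shorter at 17.164 kb, so its density was not compared at similar length. The transgene carries lab sequence as well, and whether that affects the peaks at lab was not tested.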

How the data were processed

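The data come from 3 biological replicates of 1 group, assayed by chromatin immunoprecipitation. Per the deposited file descriptions, the authors called peaks with background for each replicate, for the pooled reads, and derived an optimal IDR list. Each deposited narrowPeak list gives a signal and a −log10 q-value per peak, both the authors' values. No aligner, peak caller or IDR threshold is given in the sources used here, and read depth is unknown. The IDR list was exactly the 10160 pooled peaks of highest signal, down to 197.943, with the next at 197.941, so peaks were ranked by signal. Replicates were read whole or limited to the same number of strongest peaks. Replicate lists had 0 peaks in common with the same interval and signal.

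Genes came from Ensembl release 115 and sequence from NCBI Release 6, both in dm6 coordinates, 1-based. Peaks matched at 50% reciprocal overlap, which was checked against bedtools 2.31.1; counts and motif searches were tested on simulated data. Analyses used Python 3.11.15, numpy 2.4.6, pandas 2.3.3 and matplotlib 3.10.9. Alternatives changed flanks, peak number, overlap, start site window, motif window, control side, gene length range and replicates.

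The members, the 4 gene lists, the 10 motifs and the tests were chosen with earlier results of these data known. Named were both genes, all list members, genes overlapping their windows, and, by density among genes of similar length, the first 3 and the neighbours of hth. Flanking genes of the stretch around exd, the division of hth by start sites and the counts with 50 kb flanks were added after the values were seen. The dm3 lists were not used.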

Additional observations from a re-analysis of the deposited data

How the results depend on the processing

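No paired analysis was possible because the series has 1 group. Of 41 alternatives outside the motif counts, 34 kept the result within the tolerance used and 7 did not. The tolerance was 1.5 times for counts and 1 SD of the replicates for percents and means. Some of the 34 could not have moved, so their number does not measure robustness. Narrowing or thinning the empty exd window leaves 0, and no gene can have fewer summits than 0. A mean of 3 replicates always stays within 1 SD when 1 is left out. The hth count was 18 to 24 with other flanks or merged summits, and 8 with the stronger 50% of IDR peaks, which leaves fewer peaks by construction. The percent of genes of similar length with fewer summits per kb than hth, 92.3, became 89.2 with lengths within 2 times, 80.8 with the stronger 50%, 87.5 with summits within 500 bp counted once and 88.5 over introns. Summits upstream of the proximal start were 7 to 11 with other flanks or merged summits, and 2 with the stronger 50%; these alternatives were added after seeing the data. Matches in all 3 replicates were 7 of 22 at 80% reciprocal overlap and 20 in the whole lists. Windows with TGATNNAT numbered 2 within 50 bp and 8 within 200 bp, and the shifted windows held 2 downstream and 5 upstream. Leaving out each replicate gave a mean of 21.5 to 22.5 summits over hth, 15 to 17 matched summits, and 0 over exd. The exd count was 0 in every alternative run, with flanks of 0 to 50 kb. Lists of fixed length show rank and no level below their last peak.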
